A study of Mus musculus with 6 samples.

Results

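The plasminogen activators, serpins and HtrA proteases were followed as 8 genes of the 55401 in the deposited count table, Plau, Plaur, Plat, Serpine2, Serpina3n, Serpinf1, Htra1 and Htra3, chosen by name and matched by Ensembl identifier. RNA came from knee joint articular cartilage of mice aged 10 weeks, in 3 libraries of the genotype Adseverin knockout (titled CKO) and 3 of the genotype WT (titled CTRL). All mice, WT included, were given tamoxifen (1.5 mg per 10 g of weight, daily for 5 days) starting at week 8. The labels call the cells native articular chondrocytes. Which promoter drives Cre, and which part of the adseverin gene Scin was deleted, is not stated in the labels. Since no label ties a library to its own mouse, the p-values rest on library-to-library spread, part of which may be technical.

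Plasminogen activators are serine proteases that convert plasminogen to plasmin, which cleaves fibrin and matrix proteins and activates matrix metalloproteinases. Serpins are suicide inhibitors that trap serine proteases in a covalent complex, although some members have lost this activity. HtrA proteases are a separate serine protease family, and the secreted forms cut proteoglycans and fibronectin in cartilage.

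The read totals ran from 22664828 to 31014996 per CKO library and from 23018642 to 27576134 per WT library. Values are given as CPM, read counts divided by the TMM-scaled library size. Levels of different genes are compared as RPKM, which is CPM per kilobase of annotated exon. Scin measured 39.1, 29.9 and 29.4 CPM in CKO 1 to 3, against 186, 185 and 219 CPM in WT 1 to 3, in accord with the labels. Chondrocyte markers were abundant, and all 10 had reads. Their summed level, of which Col2a1 gave 55.5%, was 28866 to 35078 CPM in CKO and 26970 to 27874 CPM in WT. Markers of osteoblasts and osteocytes, of which Ibsp gave 87.5%, summed to 29765 to 33217 CPM in CKO and 26271 to 29481 CPM in WT. Skeletal muscle markers summed to 13.8 to 203 CPM in CKO and 16.5 to 1244 CPM in WT, where WT 2 held the highest value.

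Of the 8 genes 7 passed the filter on low counts and were tested. Plau did not. No member passed an adjusted p of 0.05 in the edgeR quasi-likelihood test, in which 1 of 16260 genes tested, or 0.00615%, was called. That gene was Scin. With DESeq2 and with limma-voom the count of members called was also 0, and at an unadjusted p under 0.05 it was 1 in edgeR, Serpina3n, and lower in CKO. That share stands against 6.5% of all genes tested in either direction and 2.96% lower. The CKO values lay wholly below the WT values for 2 of the 7, Plaur and Serpina3n, against 5.89% of all genes with CKO values wholly below and 12.3% with no overlap in either direction. The log2 fold changes, CKO minus WT, were below 0 for 5 of the 7 and for 49.4% of all genes tested. Their median was -0.11, against 0.0037 over all genes tested.

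The promoters of Plaur and Serpina3n are shown because for these members the CKO and WT ranges were separate. The sequences are the 250 bases before the start site, from RefSeq on GRCm38.p6, read 5′ to 3′ on the + strand, at chr7:24462233-24462482 for Plaur and chr12:104406458-104406707 for Serpina3n. Capitals mark matches to any of 3 motifs that were searched on both strands.
Plaur: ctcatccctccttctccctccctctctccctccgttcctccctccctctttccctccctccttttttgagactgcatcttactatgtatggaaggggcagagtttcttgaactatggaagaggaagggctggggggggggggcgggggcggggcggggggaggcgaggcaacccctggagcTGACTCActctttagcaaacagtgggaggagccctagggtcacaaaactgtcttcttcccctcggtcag
Serpina3n: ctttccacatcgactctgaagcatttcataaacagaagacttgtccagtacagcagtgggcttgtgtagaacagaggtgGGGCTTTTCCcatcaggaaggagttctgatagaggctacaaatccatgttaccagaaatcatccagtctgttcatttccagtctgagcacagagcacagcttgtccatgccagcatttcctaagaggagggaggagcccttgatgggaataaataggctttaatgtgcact
The motifs were TTCNNNGAA, a STAT motif, TGANTCA, an AP-1 motif, and GGGNNTTNCC, an NF-kB motif. Promoters of 300 bases, with 50 bases after the start site, were found for 6 of the 8 members. The AP-1 letters were found in the Plaur promoter, 69 bases before the start site, and in 7.81% of all 32851 promoters. The NF-kB letters were found in the Serpina3n promoter, 171 bases before the start site, and in 4.79% of all promoters. The STAT letters were found in 0 of the 6 and in 8.3% of all promoters. A match describes these letters only and is not evidence of binding.

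**Figure D1:**
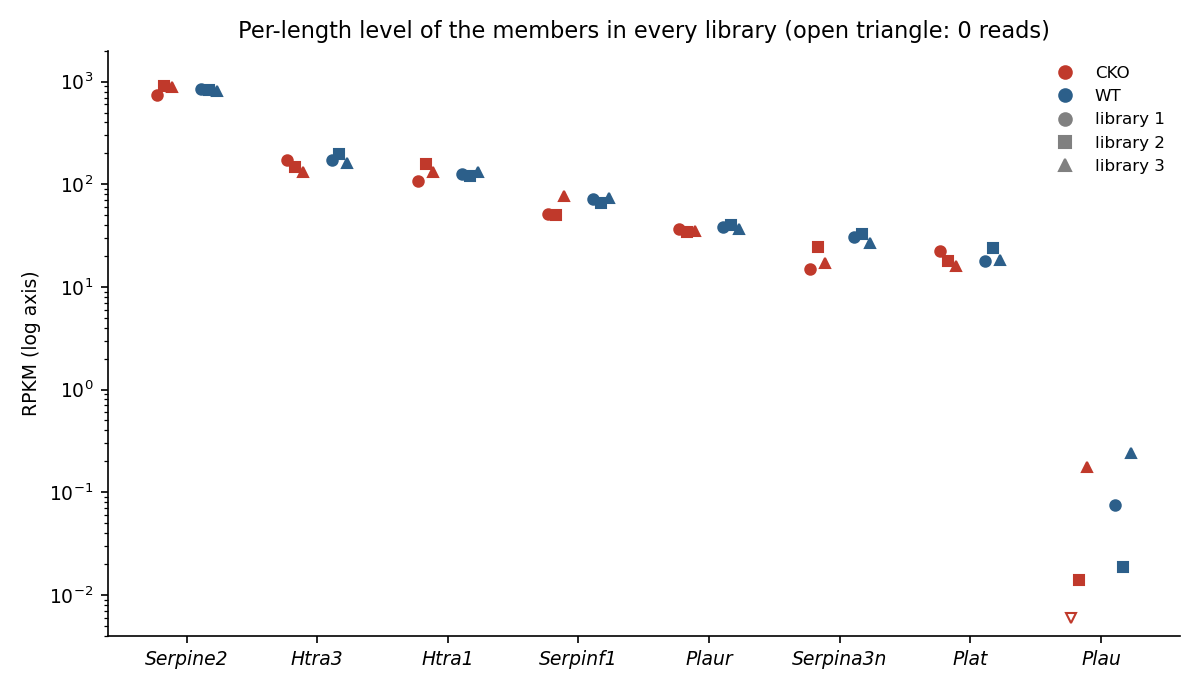
RPKM on a log axis of the 8 members in each CKO (red) and WT (blue) library, ordered by their mean over all libraries, with an open triangle where a library held 0 reads. Serpine2 lies above all other members in all 6 libraries, and Plau lies below all others in all 6.

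Per length, Serpine2 led the members by a wide margin. It averaged 847 ± 87.6 RPKM in CKO and 834 ± 18.1 RPKM in WT (SD, n = 3 each), rank 34 of the 16260 genes tested. Htra3 at a mean of 164 RPKM and Htra1 at 130 RPKM over all libraries came next, at ranks 211 and 298. These neighbours were not separated, since Htra3 stood above Htra1 in 4 of 6 libraries and below it in CKO 2 and CKO 3. Serpinf1 at 65.0 RPKM and Plaur at 36.7 RPKM followed, and each kept its place in all 6 libraries. Serpina3n at 24.5 RPKM and Plat at 19.4 RPKM changed order in CKO 1. Plau was last at 0.0875 RPKM.

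Plau encodes urokinase (uPA), the activator that works at the cell surface bound to its receptor. It had 0, 1 and 10 reads in CKO 1 to 3, against 5, 1 and 15 reads in WT 1 to 3. The 0 in CKO 1 allows a level of up to 0.133 CPM, from 3 reads, which covers counting error only. The highest Plau value of any library was 0.57 CPM, in WT 3, and the groups overlapped. Tested without the filter, its log2 fold change was -0.82 ± 1.53 (edgeR adjusted p = 0.93), so a difference was not detectable at this depth.

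Plaur encodes uPAR, the lipid-anchored receptor of urokinase. It measured 94.9, 90.3 and 91.7 CPM in CKO 1 to 3, against 99.9, 104 and 95.9 CPM in WT 1 to 3. All CKO values lay below all WT values, but by a narrow gap of 94.9 CPM in CKO 1 against 95.9 CPM in WT 3. The 3 other scalings also gave separate ranges. The log2 fold change was -0.11 ± 0.08 (95% interval -0.30 to 0.07, edgeR adjusted p = 0.873). In these libraries the receptor stood at 35.3 ± 0.903 RPKM in CKO and 38.2 ± 1.53 RPKM in WT, while its ligand Plau was at most 0.241 RPKM.

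Plat encodes tissue plasminogen activator (tPA), the secreted activator that acts on fibrin. It measured 139, 113 and 99.0 CPM in CKO 1 to 3, against 112, 151 and 114 CPM in WT 1 to 3. The groups overlapped, with WT 2 and CKO 1 highest. WT 2 was also the library with the highest summed markers of skeletal muscle (1244 CPM), adipocytes (160 CPM), pericytes and smooth muscle (194 CPM) and endothelium (69.1 CPM). CKO 3, lowest for Plat, held 132 CPM of pericyte and smooth muscle markers and 65.4 CPM of endothelial markers. The part of these cells in the Plat values was not tested. The log2 fold change was -0.10 ± 0.16 (95% interval -0.46 to 0.26, edgeR adjusted p = 0.953), and it was 0.045 without WT 2 and 0.0035 without CKO 3. Of the activators, Plat was the one above the filter, at 18.7 ± 3.23 RPKM in CKO and 20.1 ± 3.52 RPKM in WT.

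**Figure D2:**
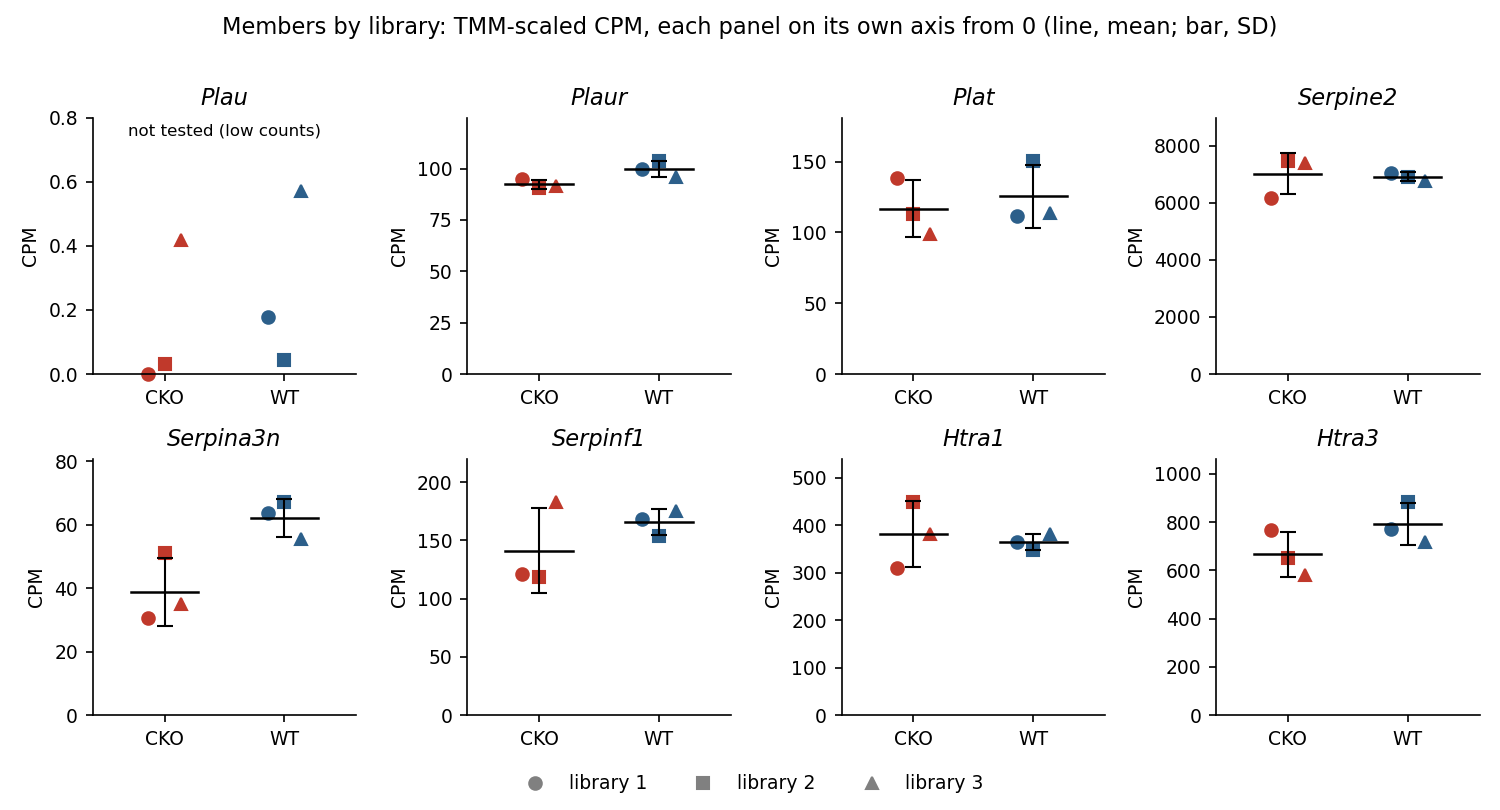
CPM of each member by library, with CKO left of WT, each panel on its own axis from 0. Lines are means and bars SD of 3 libraries, left out for Plau. Serpina3n shows the widest gap between the groups, 51.0 CPM in CKO 2 against 55.6 CPM in WT 3, while the other panels overlap or, for Plaur, nearly touch.

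Serpine2 encodes protease nexin-1, a secreted inhibitor of thrombin, uPA and tPA that is cleared through the receptor LRP1. It measured 6180, 7480 and 7389 CPM in CKO 1 to 3, against 7058, 6919 and 6758 CPM in WT 1 to 3. The CKO libraries enclosed the WT range, with CKO 1 lowest of all. The log2 fold change was 0.022 ± 0.09 (95% interval -0.17 to 0.22, edgeR adjusted p = 0.982). It was -0.027 without CKO 2 and -0.017 without CKO 3. Set against Plat within each library, the Serpine2 level per length was 33.6, 49.96 and 56.2 times that of Plat in CKO 1 to 3 and 47.5, 34.6 and 44.8 times in WT 1 to 3. The ratio was lowest in CKO 1 and WT 2, where Plat was highest, and its ranges overlapped between the groups. Ratios of this kind were chosen after the values were seen and were not tested.

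Serpina3n encodes a mouse counterpart of human antichymotrypsin, a secreted inhibitor induced in acute inflammation. It measured 30.6, 51.0 and 35.2 CPM in CKO 1 to 3, against 63.7, 67.3 and 55.6 CPM in WT 1 to 3. Every CKO library lay below every WT library, with CKO 1 and CKO 3 lowest and CKO 2 nearest to WT. The CKO mean was 38.9 ± 10.7 CPM and the WT mean 62.2 ± 6.04 CPM (SD, n = 3 each). The log2 fold change of -0.67 ± 0.19, or 62.7% of the WT level, had a 95% interval of -1.11 to -0.24, an unadjusted p of 0.00688 and an adjusted p of 0.658 in edgeR, with lower values in 3 of 3 CKO libraries. Serpina3n lies on chromosome 12 (104406729 to 104414329, GRCm38) in a family of related copies. The labels do not state how reads shared by these copies were counted. The 10 other Serpina3 genes of the table, pseudogene entries left out, together held 2.83, 4.31 and 2.51 CPM in CKO 1 to 3. In WT 1 to 3 they held 4.59, 4.34 and 6.65 CPM. Their sum was a small fraction of the Serpina3n level in every library. The pseudogene entries of this family (symbols ending in -ps) held at most 0.32 CPM, in WT 1.

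The lower Serpina3n values stood beside lower levels of markers of fibroblasts and macrophages. All 8 fibroblast markers were tested, 8 had log2 fold changes below 0 (median -0.41), and 0 were at 0 reads. Their summed level, of which Col3a1 gave 60.6%, was 1835, 3281 and 2024 CPM in CKO 1 to 3, against 3528, 3814 and 3395 CPM in WT 1 to 3. The libraries ranked in the same order within each group as for Serpina3n. Per 1000 reads of these markers Serpina3n had 16.7, 15.6 and 17.4 reads in CKO 1 to 3, against 18.1, 17.7 and 16.4 reads in WT 1 to 3. On this scale, chosen after the values were seen, the groups overlapped. The marker sum was itself lower in CKO, so the scale raises CKO against WT for every member. On it Serpine2 ran from 2280 to 3651 in CKO and from 1814 to 2001 in WT. Htra1 ran from 137 to 189 in CKO and from 91.3 to 112 in WT. Both were separate on this scale but overlapped in CPM. Of 10 macrophage markers 9 were below 0 (median -0.28) and 0 were at 0 reads. They summed to 675, 797 and 833 CPM in CKO 1 to 3, against 1078, 866 and 851 CPM in WT 1 to 3. Within neither group was this the order of Serpina3n. Per 1000 macrophage marker reads Serpina3n had 45.3, 64.0 and 42.2 reads in CKO 1 to 3. In WT 1 to 3 it had 59.1, 77.8 and 65.3 reads, and the groups overlapped at CKO 2 on this scale too. Over all genes tested, 49.4% were below 0. Below 0 as well were 5 of 5 tested adipocyte and 5 of 5 skeletal muscle markers. So were 5 of 6 pericyte and smooth muscle markers and 5 of 7 endothelial markers. The summed adipocyte, skeletal muscle, pericyte and smooth muscle, and endothelial levels each overlapped between the groups, with WT 2 highest in each. Above 0 were 8 of 8 osteoblast and osteocyte, 9 of 10 chondrocyte, 6 of 7 neutrophil and 7 of 7 erythroid markers. The chondrocyte marker below 0 was Acan. By profile over the 6 libraries (mean-centred log2 CPM), the genes nearest to Serpina3n among those with a mean of at least 5 CPM were C1qa, at a root-mean-square distance of 0.091, and Col3a1, at 0.12. Both are on the marker lists. The part of fibroblasts, macrophages or other cells in the Serpina3n difference was not tested. In bulk tissue, fewer cells of a type and less RNA per cell cannot be told apart.

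**Figure D3:**
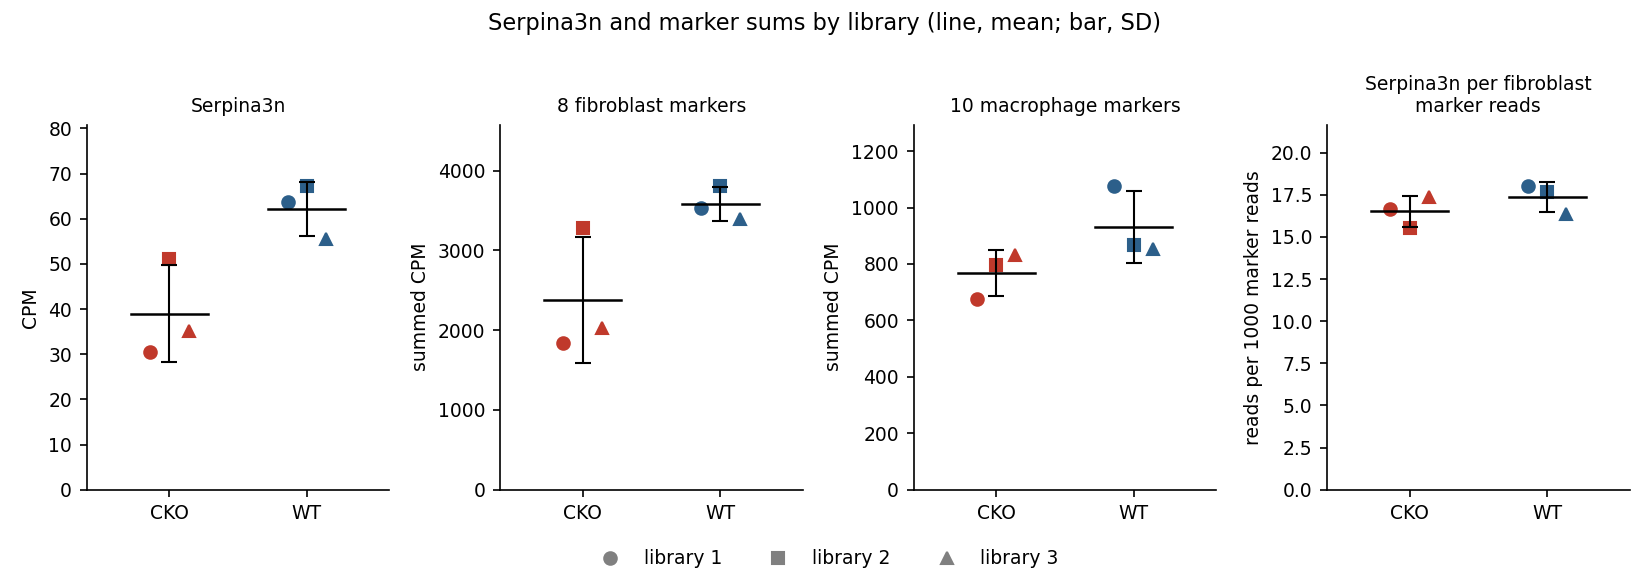
From left to right, Serpina3n in CPM, the summed CPM of 8 fibroblast markers, the summed CPM of 10 macrophage markers, and Serpina3n reads per 1000 fibroblast marker reads, with CKO left of WT and lines and bars for mean and SD of 3 libraries. The first 3 panels show no overlap between groups, whereas the last runs from 15.6 to 17.4 in CKO and from 16.4 to 18.1 in WT. The last panel divides by marker reads whose CPM sum was itself lower in CKO.

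Serpinf1 encodes pigment epithelium-derived factor (PEDF), a secreted serpin without protease inhibitor activity that is known for blocking vessel growth. It measured 121, 119 and 183 CPM in CKO 1 to 3, against 168, 154 and 175 CPM in WT 1 to 3. CKO 1 and CKO 2 lay below all WT libraries, while CKO 3 was the highest of all 6. Between the groups the log2 fold change was -0.23 ± 0.16 (95% interval -0.61 to 0.15, edgeR adjusted p = 0.873). Without CKO 3 it was -0.46, at an unadjusted p of 0.00172 and an adjusted p of 0.727, against a range of -0.46 to -0.12 over the 6 fits that each left out a library. The coefficient of variation of this gene was 25.9% in CKO and 6.59% in WT.

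Htra1 encodes a secreted serine protease that cleaves aggrecan, fibronectin and decorin and is known to be raised in human osteoarthritic cartilage. It measured 311, 450 and 382 CPM in CKO 1 to 3, against 365, 348 and 381 CPM in WT 1 to 3. The CKO libraries enclosed the WT range, with a coefficient of variation of 18.3% in CKO and 4.5% in WT. Its log2 fold change was 0.062 ± 0.13 (95% interval -0.23 to 0.36, edgeR adjusted p = 0.967), and it was -0.075 without CKO 2.

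Htra3 encodes a close relative of HtrA1 that is also secreted. It measured 768, 653 and 583 CPM in CKO 1 to 3, against 774, 886 and 716 CPM in WT 1 to 3. CKO 2 and CKO 3 lay below all WT libraries, and CKO 1 lay inside the WT range. Its log2 fold change was -0.25 ± 0.12 (95% interval -0.52 to 0.03, unadjusted p = 0.0747, edgeR adjusted p = 0.803). It was -0.16 without CKO 3, -0.16 without WT 2 and -0.36 without CKO 1, with unadjusted p-values of 0.0148 to 0.24 over the 6 fits that each left out a library. WT 2, the highest library for Htra3 as for Plat, also held the highest sums of muscle, adipocyte, pericyte and endothelial markers. CKO 3, the lowest for both genes, held 65.4 CPM of endothelial markers, against 69.1 CPM in WT 2. It held 132 CPM of pericyte and smooth muscle markers, against 194 CPM in WT 2. The part of these cells in the Htra3 values was not tested. Per length Htra3 stood at 1.603, 0.941 and 0.990 times Htra1 in CKO 1 to 3 and at 1.38, 1.65 and 1.22 times in WT 1 to 3. Htra1 was the higher of the pair in CKO 2 and CKO 3.

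Among the 7 tested members, 2 pairs lay closest by profile distance. Serpine2 and Htra1 lay at a root-mean-square distance of 0.096 on the log2 scale, both lowest in CKO 1 and highest in CKO 2. Plat and Htra3 lay at 0.10, both highest in WT 2 and lowest in CKO 3. The members farthest apart were Plat and Serpina3n, at 0.44. Such distances also depend on how widely each gene varied. The root-mean-square deviation from its own mean was 0.42 for Serpina3n, 0.21 for Plat and 0.091 for Serpine2. Outside the group, the nearest genes were Gapvd1 and Phb for Plaur (0.014 and 0.017), Med13 and Tfe3 for Plat (0.023 and 0.045) and Bgn and Tiprl for Serpine2 (0.030 and 0.031). They were Tmsb4x and Proser1 for Serpinf1 (0.043 and 0.059), Cmip and Rchy1 for Htra1 (0.044 and 0.047) and Map2k7 and Actg1 for Htra3 (0.033 and 0.041). With 6 libraries such likeness is a description only.

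The wider plasminogen system was measured through 14 listed genes, of which 11 were tested. Plg, the gene of plasminogen itself, was not tested and had 0 reads in every library. Of the 11 none passed the threshold in either direction, and 9 were below 0, against 49.4% of all genes tested. The 9 include Serpinb2, which had 0 reads in WT 2 and is also counted among the other serpins. An unadjusted p under 0.05 was reached by 2, both lower, against 2.96% of all genes tested that were lower at that p. S100a10, which with annexin A2 forms a surface receptor for plasminogen, measured 92.2, 76.3 and 77.3 CPM in CKO 1 to 3, against 95.4, 117 and 111 CPM in WT 1 to 3. Its log2 fold change was -0.40 ± 0.12 (edgeR adjusted p = 0.658), whereas that of Anxa2, its partner, was -0.0082 ± 0.07. F3, tissue factor, the trigger of coagulation, measured 11.8, 10.2 and 10.5 CPM in CKO 1 to 3, against 13.8, 15.7 and 19.2 CPM in WT 1 to 3 (log2 fold change -0.58 ± 0.18, edgeR adjusted p = 0.683). Mrc2, a collagen uptake receptor that binds uPAR, had -0.21 ± 0.11. Its values were separate by a narrow gap, 73.4 CPM in CKO 1 against 73.7 CPM in WT 2, and they overlapped with library sizes alone (73.2 CPM in CKO 1 against 73.03 CPM in WT 2) and with upper-quartile factors (73.8 CPM in CKO 1 against 73.3 CPM in WT 2). With Mrc2, 3 genes of this list had CKO values wholly below WT values on TMM-scaled CPM, the others being S100a10 and F3, against 5.89% of all genes tested.

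**Figure D4:**
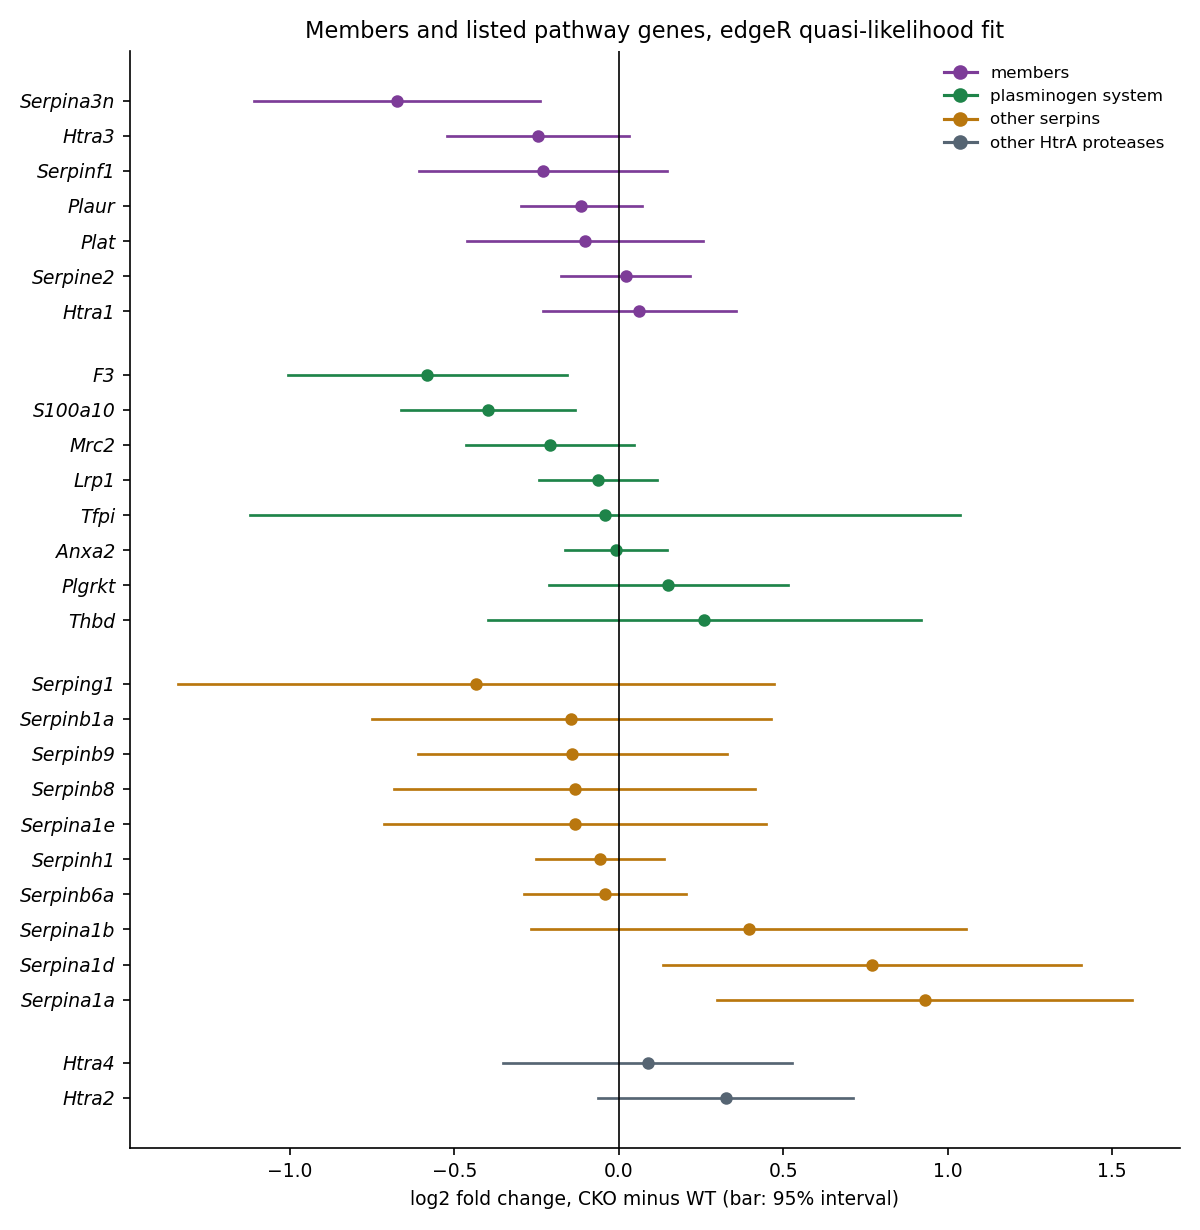
Log2 fold change, CKO minus WT, of the 7 tested members and of listed plasminogen system, serpin and HtrA genes with a mean of at least 5 CPM, with 95% intervals from the edgeR fit. Serpina3n, F3 and S100a10 lie lowest among those whose intervals leave out 0, Serpina1a and Serpina1d lie highest, and no gene shown passed the adjusted threshold.

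Lrp1, the clearance receptor for serpin complexes, had a log2 fold change of -0.063 ± 0.08. Of 65 other serpins 25 were tested and 0 passed. Their median was -0.13, with 18 below 0 and 7 above, against 49.4% of all genes tested below 0. Some of the 25 had 0 reads in some libraries. An unadjusted edgeR p under 0.05 was reached by 3, all higher, against 6.5% of all genes in either direction. Values did not overlap for 2 higher and 1 lower, against 12.3% of all genes in either direction. Smallest p-values among the 25 belonged to Serpina1a, Serpina1d and Serpina1c. They are copies of the gene for alpha-1-antitrypsin, the inhibitor of neutrophil elastase. Serpina1a measured 31.9, 52.8 and 70.3 CPM in CKO 1 to 3, against 21.1, 29.5 and 30.8 CPM in WT 1 to 3, with a log2 fold change of 0.93 ± 0.28 (edgeR adjusted p = 0.658). Serpina1d and Serpina1c had 0.77 ± 0.28 and 1.23 ± 0.46. Not every copy was higher in CKO: Serpina1e, named after its values were seen, averaged 118 ± 33.1 CPM in CKO and 129 ± 39.0 CPM in WT, with a log2 fold change of -0.13 ± 0.25. The labels do not state how reads were divided between these near-identical copies, so the value of each copy is uncertain. Of 7 neutrophil markers 6 were above 0 and 0 at 0 reads, where 49.4% of all genes tested were below 0. They summed to 1253, 1644 and 2628 CPM in CKO 1 to 3, against 1896, 1053 and 1491 CPM in WT 1 to 3. In CKO the neutrophil sum and Serpina1a both rose from CKO 1 to CKO 3, the highest of all libraries for both. WT 1 held the highest neutrophil sum among the WT libraries and the lowest Serpina1a value. The part of neutrophils in the Serpina1 values was not tested.

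The remaining HtrA genes were both tested and neither passed. Htra2, a mitochondrial protease, measured 47.0, 53.3 and 48.0 CPM in CKO 1 to 3, against 47.4, 29.9 and 41.1 CPM in WT 1 to 3 (log2 fold change 0.32 ± 0.17, edgeR adjusted p = 0.812). Htra4, a secreted relative best known from placenta, averaged 260 RPKM over all libraries, above Htra3 and Htra1. It measured 684, 630 and 620 CPM in CKO 1 to 3, against 442, 813 and 564 CPM in WT 1 to 3, and the groups overlapped.

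Genes of 9 matrix proteins that these proteases can cut were listed, and 0 of 9 passed. Acan, the large aggregating proteoglycan, averaged 882 ± 152 CPM in CKO and 1345 ± 85.9 CPM in WT. Its log2 fold change was -0.61 ± 0.13 (edgeR adjusted p = 0.535). Fn1, fibronectin, averaged 3642 ± 247 CPM in CKO and 4575 ± 203 CPM in WT, with a log2 fold change of -0.33 ± 0.08 (edgeR adjusted p = 0.596). CKO values lay wholly below WT values for these 2 of the 9, against 5.89% of all genes tested. With no overlap in either direction it was 12.3% of all genes. Comp, cartilage oligomeric matrix protein, had a log2 fold change of 0.13 ± 0.08. Of the 9 genes 6 were above 0 and 3 below, against 49.4% of all genes tested below 0.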

How the data were processed

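RNA was sequenced from knee articular cartilage in 3 CKO and 3 WT libraries; groups and numbers come from the sample titles. The deposited table holds raw read counts per Ensembl gene. The submitters' processing notes name the build GRCm38, the aligner HISAT2 2.2.1 and the counter featureCounts 2.0.1, beside DESeq2 1.30.1, R 4.0.5 and FastQC 0.11.9; the labels state no settings, strand or treatment of multi-mapping. A second deposited table, of normalized values, was not used here. Symbols, coordinates and exon lengths came from GENCODE M21 (GRCm38), which matched 55141 of 55401 identifiers. Exons of no other annotated gene overlapped those of the 8 members (0 bases shared).

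Default filterByExpr left 16260 genes, which were TMM-scaled and put through the quasi-likelihood test of edgeR 4.0.16 (glmQLFit, glmQLFTest; R 4.3.3) with a group term alone (4 residual degrees of freedom) and Benjamini-Hochberg adjustment over all genes; the threshold was 0.05. The SE is the log2 fold change divided by the square root of F. No exact permutation test was run, since 3 against 3 libraries allow no p below 0.1. Chi-square per degree of freedom between libraries of a group was 31.4 to 36.5, so none was counted as a duplicate. Only the edgeR fit was tested on simulated counts, with changes larger than that of any member. Members, lists and tests were chosen with earlier results of these data known. Named genes are the members, Scin and, from each pathway list, the 3 genes with the smallest p. The 2 genes with the nearest profile to each member are also named. So are Anxa2, Lrp1, Plg, Serpinb2, Serpina1b and Serpina1e, chosen for their role or read counts after their values were seen. Alternatives were DESeq2 1.42.0, limma-voom (limma 3.58.1) with and without sample weights, other scalings and filters, robust dispersion, a replicate block and leaving out each library. Some listed genes are counted but not reported here. Protein sequences were not used here.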

Additional observations from a re-analysis of the deposited data

How the results depend on the processing

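Under 16 alternatives no member passed the threshold, and 107 of 112 member values kept their direction. Scaling choices turned no sign. The 5 that turned came from leaving out a library, where the log2 fold change ranged from -0.24 to 0.045 for Plat, from -0.027 to 0.11 for Serpine2 and from -0.075 to 0.19 for Htra1. Serpina3n ranged from -0.92 without CKO 2 to -0.53 without CKO 1, and its adjusted p from 0.075 with DESeq2 to 0.836. Over all genes, 1 passed in edgeR, 91 with DESeq2 (44 higher, 47 lower; 11621 without an adjusted p) and 3 without a filter; the cause was not tested. Deviations of same-numbered libraries correlated at -0.0193, 0.0712 and 0.0235, and 3 of 6 libraries correlated best with their own number, so the numbers were not taken as pairs. With the replicate block 1 gene and 0 members passed, and Serpina3n had -0.70. Plau missed the filter, so no alternatives were compared for it. With 3 libraries a group, the 95% intervals of Plat, Serpinf1, Htra1 and Htra3 leave room for differences of over 0.3 on the log2 scale.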

Other observations

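The Serpina1 copies, which encode alpha-1-antitrypsin, together averaged more CPM in each group than any member except Serpine2. This sets a sum over copies beside single genes, in CPM, which do not correct for gene length. Summed over the 6 copies Serpina1a to Serpina1f, of which 5 had reads, the level was 940, 1519 and 1811 CPM in CKO 1 to 3, against 684, 1098 and 1170 CPM in WT 1 to 3. The mean was 1423 ± 444 CPM in CKO and 984 ± 262 CPM in WT (SD, n = 3 each), and the groups overlapped at CKO 1. A sum does not depend on how shared reads were divided between these copies, as long as they stayed among them. Per length Serpina1d was the most abundant copy in every library, at a mean of 412 RPKM over all libraries, with Serpina1b next at 192 RPKM. In CPM, Serpina1d measured 515, 734 and 923 CPM in CKO 1 to 3, against 273, 434 and 569 CPM in WT 1 to 3, and Serpina1b measured 307, 579 and 695 CPM in CKO 1 to 3, against 299, 503 and 401 CPM in WT 1 to 3. Within each group, library 1 was lowest for both copies. The sum was chosen after the values were seen and was not tested.

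Endothelial markers came to 33.6 to 65.4 CPM in CKO and 45.0 to 69.1 CPM in WT, and pericyte and smooth muscle markers to 70.1 to 132 CPM in CKO and 74.1 to 194 CPM in WT. Adipocyte markers came to 19.7 to 31.2 CPM in CKO and 21.8 to 160 CPM in WT, with WT 2 highest in each of these 3 lists and Lep at 0 reads in every library. Erythroid markers came to 1914 to 2865 CPM in CKO and 1823 to 2063 CPM in WT.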
